A study of Caenorhabditis elegans with 4 samples.

Results

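Chromosome IV of Caenorhabditis elegans carries nearly all of the worm's piRNA genes, short germline RNAs that guide Argonaute proteins to silence foreign sequence, and these genes sit in 2 broad domains. The regions described here are the LIN-15B peaks of chromosome IV that lie outside those domains, chosen by position alone: those with a midpoint below 4.5 Mb (the left end), from 7000000 up to 13500000 (the middle stretch), or at 17200000 and above (the right end). They numbered 607 of the 829 peaks on chromosome IV (73.2%) and of 4141 peaks in all (14.7%), with 268 in the left end, 328 in the middle stretch and 11 in the right end. Coordinates are on WormBase WS180. In the WBcel235 gene table, 14714 of 15363 piRNA genes (95.8%) are assigned to chromosome IV, but where they lie relative to the peaks was not analysed here.

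LIN-15B is a nuclear protein with a THAP domain, a zinc-binding fold that contacts DNA. It belongs to the synMuv B class of genes, many of which act with the DREAM complex to keep germline genes silent in somatic tissue and to hold vulval induction in check. The autosomes of this worm are organised in arms and centres: arms are rich in repeats and in histone H3 lysine 9 methylation and recombine often, while centres recombine rarely and hold many of the broadly expressed genes.

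The protein was mapped by chromatin immunoprecipitation and sequencing in whole hermaphrodites at the L3 larval stage, with 2 immunoprecipitated (ChIP) libraries and 2 input libraries. All 4 came from 1 strain, OP184, grown at 20 °C, which carries the unc119(ed3) mutation and the insertion wgIs184 with lin-15B fused to TY1, EGFP and FLAG tags. The insertion was made by bombardment and also holds an unc119 rescue copy, in ChIP and input libraries alike, and recovery was with a goat antibody against GFP. No wild-type or untagged worms are among the samples, and tissues were not separated. A single combined list was used, which gives every peak 1 q-value and neither replicate a value of its own. The depth is therefore unknown and no spread between replicates could be computed, so intervals below cover counting error only and describe this list.

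The left end was the fullest of the 5 sections of chromosome IV, though only a little fuller than the middle stretch. It held 59.6 peaks per Mb (95% exact Poisson interval 52.6 to 67.1), against 50.5 per Mb (45.1 to 56.2) in the middle stretch, a ratio of 1.18 (95% exact conditional interval 1.00 to 1.39). The right end, 0.261 Mb from the boundary to the last peak, held 42.1 per Mb (21 to 75.3). Because the left end was picked with its density known, the ratio is a description and carries no test. The intervals of densities and their ratios treat peaks as independent. Counts in 100 kb windows of the left end varied more than that, with variance divided by mean of 2.68. Intervals that involve the left end are therefore likely too narrow. Outside the piRNA domains as a whole the density was 53.9 peaks per Mb, against 35.8 within them, 1.51-fold (1.29 to 1.76). This ratio includes the left end and is likewise a description. For the middle stretch alone over the domains, an alternative chosen after seeing the data, it was 1.41 (1.18 to 1.68). The domain between the left end and the middle stretch held 41.6 peaks per Mb and that between the middle stretch and the right end 31.9. Regions covered 2.15% of the left end and 2.02% of the middle stretch.

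No other chromosome began as densely. The first 4.5 Mb held 268 peaks on chromosome IV, ahead of 224 on III (49.8 per Mb, exact Poisson interval 43.5 to 56.7) and 210 on I (46.7 per Mb, 40.6 to 53.4). On II, V and X the same length held between 112 and 126 peaks. The intervals of IV and III overlap, whereas those of II, V and X, at most 33.3 per Mb, lie below that of IV. All of them treat peaks as independent, and that of IV is likely too narrow, as said above.

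The fullest parts of the left end were 2 places. In windows of 500 kb, the left end held 22 to 43 peaks, and its fullest were 2.5 to 3.0 Mb with 43 and 4.0 to 4.5 Mb with 41. These 1.00 Mb carried 84 of the 268 left-end peaks (31.3%). The other 3.5 Mb held 52.6 per Mb (exact Poisson interval 45.2 to 60.7), which was 1.04 times the density of the middle stretch (0.865 to 1.25). The middle stretch kept its own fullest windows in this ratio, and its 13 windows of that size held 18 to 34 peaks. With the 2 fullest windows left out of both, an alternative chosen after seeing the data, the left end held 52.6 per Mb and the middle stretch 47.8, a ratio of 1.10 (0.906 to 1.33). Leaving out windows for being fullest lowers a density by construction, so neither ratio says where the difference lies.

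At 100 kb the contrast was in evenness more than in the usual count. The median window held 5 peaks in both stretches. Variance divided by mean was 2.68 over the 45 left-end windows and 1.000 over the 65 windows of the middle stretch. Windows with 10 or more peaks numbered 8 in the left end (17.8% of its windows), with 99 peaks or 36.9% of its total, and 3 in the middle stretch (4.62%), with 31 peaks or 9.45%. Windows with 2 or fewer numbered 7 in the left end (15.6%) and 5 in the middle stretch (7.69%). Both crowded and nearly empty windows thus took a larger share of the left end. Both of the 2 fullest of 1003 such windows over all chromosomes were in the left end, 2600001 to 2700000 with 20 peaks and 4400001 to 4500000 with 16.

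**Figure D1:**
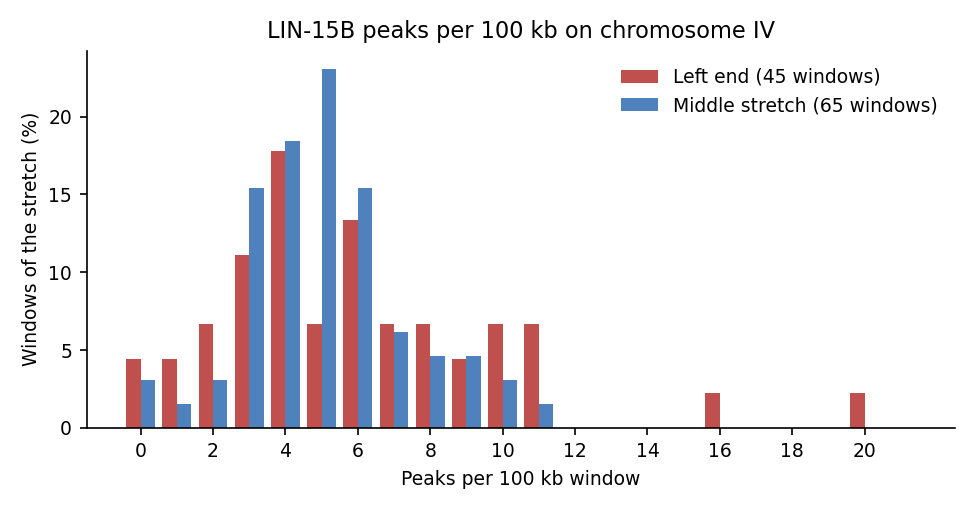
Share of 100 kb windows (vertical axis, percent of the windows of each stretch) by the number of LIN-15B peak midpoints they hold (horizontal axis), in the left end (45 windows, red) and in the middle stretch (65 windows, blue). The windows with 16 and 20 peaks are both in the left end, while the middle stretch does not exceed 11.

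The cluster near 2.6 Mb was a chain of mixed strength. Strength is -log10 of the authors' q-value throughout, so that q of 1e-10 is a strength of 10. The fullest 100 kb starting at a peak here held 21 peaks between 2599653 and 2683594, a span of 83.9 kb, with 10 of 20 neighbouring midpoints within 2 kb. Its median strength was 6.52 (95% order-statistic interval 3.05 to 11.4) and its median width 355 bp. The strongest peak, at 2676252 to 2676656, reached 74.9, and 5 further peaks had q under 1e-10. Of these, the peak at 2640963 to 2641361 reached 43.3 and that at 2601945 to 2602400 reached 28.7. Those at 2599653 to 2600020, 2666133 to 2666959 and 2650700 to 2651664 had strengths of 18.5, 16.2 and 11.4, and the last was the widest of the cluster at 965 bp.

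Around these stood the weaker members of the cluster. On the left, 3 peaks at 2602674 to 2602876, 2603662 to 2604042 and 2604259 to 2604317 came close behind the peak of strength 28.7, with strengths of 2.39, 5.13 and 2.20. A lone peak of 7.12 came next at 2613142 to 2613463. The peak of strength 43.3 was flanked on both sides, at 2639720 to 2639967 and at 2642072 to 2642445, by peaks of 6.07 and 6.05. Then came 3 weak peaks, at 2656501 to 2656704 (3.05), 2657356 to 2657557 (2.16) and 2658464 to 2658765 (2.17). Peaks at 2664470 to 2664878 (6.52) and 2665481 to 2665878 (4.10) preceded the one of 16.2. The strongest peak had neighbours at 2670713 to 2671014 (7.76) and 2673899 to 2674184 (6.91) on its left. On its right were 2677813 to 2677957 (2.10) and 2683240 to 2683594 (6.88).

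The cluster near 4.4 Mb had 3 strong peaks among weak ones, several of them narrow. It held 19 peaks between 4390436 and 4481392 (91.0 kb), with 8 of 18 neighbouring midpoints within 2 kb. Its median strength was 3.21 (order-statistic interval 2.54 to 5.63) and its median width 276 bp. The strong peaks were 4390436 to 4390883 with 112, 4445675 to 4446126 with 86.6 and the 1434 bp region 4404966 to 4406399 with 29.7. The other 16 stayed between 2.31 and 5.66. Of the 19 peaks, 7 missed a q of 0.001 and 7 spanned 200 bp or less, among them a single base at 4454625.

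The 16 weaker peaks formed 4 groups and 3 strays. Between the first strong peak and the wide region lay 4396154 to 4396353 (3.05), 4398508 to 4398799 (3.21), 4400969 to 4401269 (4.90) and 4403885 to 4404083 (2.32), and just past the wide region 4407064 to 4407492 (4.07). Right of the peak of strength 86.6 were 4446985 to 4447275 (2.73) and 4447516 to 4447601 (2.6). Further on, the single base at 4454625 (2.31) lay beside 4454853 to 4455218 (4.05). The last group held 4 peaks, at 4468139 to 4468333 (2.32), 4469937 to 4470184 (5.66), 4470654 to 4471210 (4.58) and 4471429 to 4471673 (3.15). Alone stood 4414685 to 4414715 (2.35), 4424001 to 4424276 (5.63) and 4481275 to 4481392 (2.54). That last peak is also the final member below the 4.5 Mb boundary.

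Nothing in the middle stretch was as crowded. Its fullest 100 kb held 12 peaks between 13226813 and 13322787, with 1 of 11 neighbouring midpoints within 2 kb. The median distance from one midpoint to the next was 8.39 kb there, against 1.88 kb in the cluster near 2.6 Mb and 2.43 kb in that near 4.4 Mb. Peaks with q under 1e-10 made up 6 of 21 in the cluster near 2.6 Mb, 3 of 19 in that near 4.4 Mb and 5 of 12 in the fullest window of the middle stretch. The last included the second strongest peak of its stretch, at 13240296 to 13240899 with 132. Another, at 13297693 to 13298126, reached 40.8. All 3 windows were chosen for their crowding, so these shares are descriptive.

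**Figure D2:**
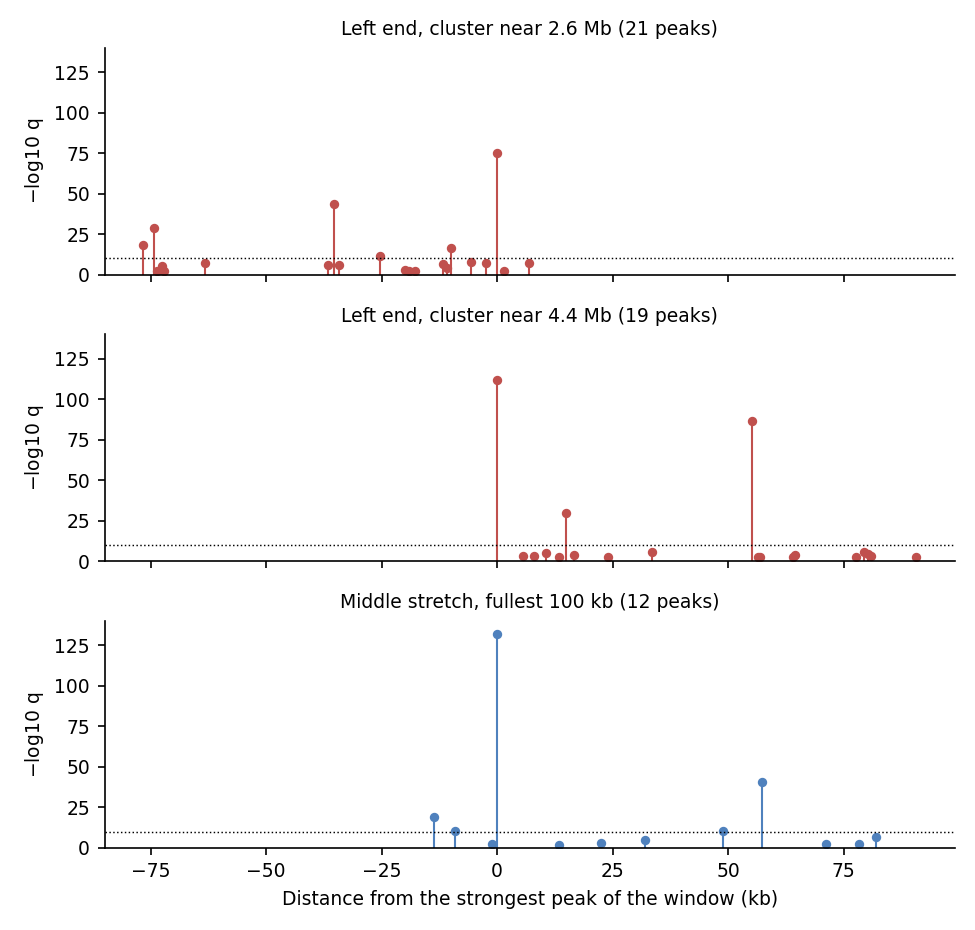
Peaks of the 2 left-end clusters (red) and of the fullest 100 kb window of the middle stretch (blue), each drawn at its distance in kb from the strongest peak of its window (horizontal axis) with its strength, -log10 q (vertical axis); the dotted line marks q of 1e-10. In the cluster near 4.4 Mb 3 peaks rise above the line and 16 stay below it, while the window of the middle stretch has 12 peaks set further apart.

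The mix of strengths was not found to differ between the left end and the middle stretch. In the left end 97 of 268 peaks (36.2%, 95% exact interval 30.4% to 42.3%) had q under 1e-10, and in the middle stretch 119 of 328 (36.3%, 31.1% to 41.7%), beside 36.1% of the whole list. The difference was -0.0865 percentage points (95% interval -7.76 to 7.67; Fisher's exact test, two-sided, adjusted over 6 tests, p = 1.00), so a difference of up to about 7.76 points either way is not excluded. Median strength was 6.33 (5.23 to 7.70) in the left end, 6.32 (5.32 to 7.29) in the middle stretch and 5.32 (3.36 to 37.0) in the right end. A q under 0.001 was reached by 78.0% of the left-end peaks and 79.3% of those of the middle stretch, against 78.1% of the whole list. Both classes of peak were denser in the left end by the same factor: peaks with q under 1e-10 by 1.18-fold (exact conditional interval 0.891 to 1.55) and the others by 1.18-fold (0.960 to 1.45).

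Taken as a whole, the 607 peaks had the same share of strong peaks as the remainder of the list. A q under 1e-10 was reached by 219 of 607 (36.1%), against 1275 of 3534 (36.1%) elsewhere (Fisher's exact test, adjusted p = 1.00; difference within -4.05 to 4.20 points). Within the piRNA domains it was reached by 75 of 222 (33.8%), so that outside minus inside was 2.30 points (-5.15 to 9.37; Fisher's exact test, adjusted p = 0.871). With the 2 domains pooled, the excess of density outside was found for peaks with q under 1e-10 (19.4 per Mb outside against 12.1 inside, 1.61-fold, 1.23 to 2.12) and for the others (34.5 against 23.7 per Mb, 1.45-fold, 1.20 to 1.77). Peaks with q under 1e-10 stood at 16.4 per Mb (11.8 to 22.2) in the domain next to the left end. In the other domain they stood at 9.19 (6.36 to 12.8). The left end held 1.31 times the first density (0.903 to 1.94) and 2.35 times the second (1.57 to 3.58). For the weaker peaks these ratios were 1.51 (1.12 to 2.05) and 1.67 (1.28 to 2.20). An excess of stronger peaks in the left end over the first domain alone is therefore not shown. For peaks with q under 1e-50 the densities were 3.11 per Mb outside and 3.06 inside, a ratio of 1.01 with a wide interval (0.564 to 1.88). These tests treat peaks as independent, which close neighbours may not be.

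**Figure D3:**
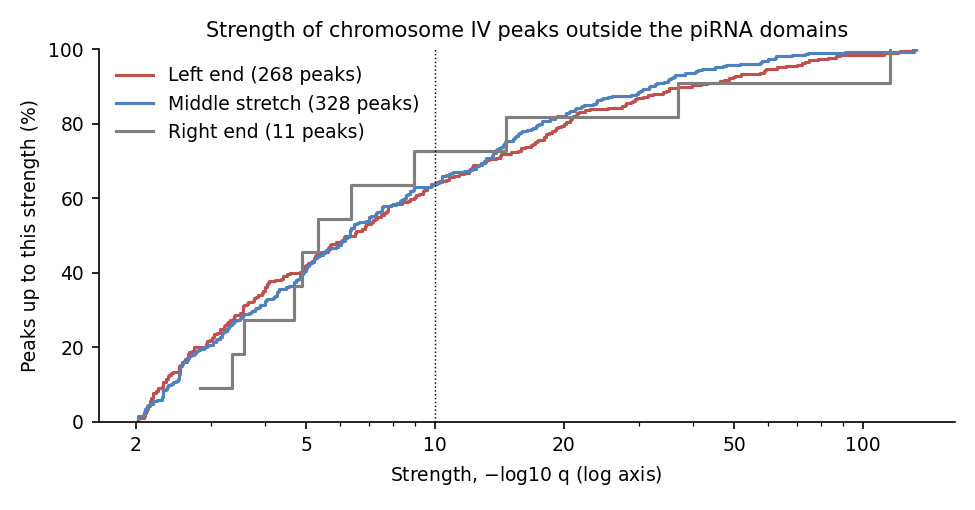
Cumulative share of peaks (vertical axis, percent) up to a given strength, -log10 q (horizontal log axis), for the left end (268 peaks, red), the middle stretch (328, blue) and the right end (11, grey); the dotted line marks q of 1e-10. The red and blue curves run together, with medians of 6.33 and 6.32.

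With q under 1e-50 the left end held more peaks than the middle stretch, but too few to separate the 2. A q under 1e-50 was reached by 20 left-end peaks (7.46%, exact interval 4.62% to 11.3%) and by 14 in the middle stretch (4.27%, 2.35% to 7.06%), beside 6.54% of the whole list. Per Mb this was 4.44 against 2.15, a ratio of 2.06 (0.991 to 4.42). Among the strongest 100 peaks of the list, 8 lay in the left end, 3 in the middle stretch and 1 in the right end. These parts held 6.47%, 7.92% and 0.266% of the whole list. The contrast depended on the cut. Among the strongest 10 the left end held 1 and the middle stretch 2, and among the strongest 1000 they held 70 and 71.

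The strongest left-end peaks lay both in the clusters and outside them. First came 1420028 to 1420584, sixth in the whole list, with a strength of 131, then 3294170 to 3295026 with 122 and 654677 to 655218 with 121. The peak at the head of the cluster near 4.4 Mb followed with 112. After a drop came 255430 to 255900 (88.3), the second strong peak of that cluster (86.6), 3050191 to 3051078 (82.8) and the 1269 bp region 3384440 to 3385708 (78.7). The strongest peak of the cluster near 2.6 Mb was ninth with 74.9, and 2388906 to 2389379 closed the set with 73.4. Thus 3 of the 10 lay in the clusters, which held 40 of the 268 left-end peaks (14.9%).

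In the middle stretch the scale fell faster. Its strongest peaks, 7084707 to 7085210 with 133 and 13240296 to 13240899 with 132, lay near either end of the stretch, and the third, 12391065 to 12391550, had 91.0. The next were 7791165 to 7791618 with 74.4 and 12404099 to 12404540 with 73.4. The tenth, 11592805 to 11594703, had 60.0, below the tenth of the left end. Between them stood 8431653 to 8433192 (68.2), 10734480 to 10734889 (62.7), 10128947 to 10129391 (62.6) and 9444243 to 9444957 (62.4).

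The right end was short, with 11 peaks. A q under 1e-10 was reached by 3 of them (27.3%, exact interval 6.02% to 61.0%), beside 36.1% of the whole list. The first peak of the right end, 17249638 to 17250077, had a strength of 116 and was place 25 in the whole list. A further 2 passed q of 1e-10, the 644 bp region 17278131 to 17278774 with 37.0 and 17380266 to 17380657 with 14.7. The other 8 lay between 2.83 and 8.95. They were 17268598 to 17268944 (3.36), 17293711 to 17294066 (4.90), 17375713 to 17376192 (3.59), 17421698 to 17421993 (4.69), 17461325 to 17461639 (5.32) and a close group of 3 at 17331083 to 17331481 (6.36), 17333487 to 17333831 (8.95) and 17335048 to 17335326 (2.83).

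Peaks in the left end stood closer together at short range. The median distance between neighbouring midpoints was 7.36 kb there (order-statistic interval 5.96 to 9.87) and 12.4 kb in the middle stretch (10.6 to 14.98). Pairs within 2 kb were 52 of 267 in the left end (19.5%, exact interval 14.9% to 24.7%) and 36 of 327 in the middle stretch (11.0%, 7.83% to 14.9%), beside 11.0% over the whole list. A denser stretch has closer neighbours in any case. The median as a share of the mean distance, 0.443 in the left end and 0.632 in the middle stretch, takes the density out. This share was 0.376 over the 2 piRNA domains and 0.547 over the whole list, both of which pool sections of differing density. A low share was therefore not found in the left end only. In the left end 26 of the 52 close pairs joined 2 peaks that both missed q of 1e-10, 20 joined a stronger and a weaker peak and 6 joined 2 stronger ones. In the middle stretch the 36 close pairs were 14, 20 and 2 of these kinds.

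Weaker peaks of the left end also lay nearer to stronger ones. Of 171 left-end peaks that missed q of 1e-10, 54 (31.6%, exact interval 24.7% to 39.1%) had a peak past it within 5 kb, against 36 of 209 (17.22%, 12.37% to 23.04%) in the middle stretch. Their median distance to such a peak was 12.4 kb in the left end and 19.9 kb in the middle stretch. In the piRNA domains 34 of 147 weaker peaks (23.1%, 16.6% to 30.8%) had a stronger one within 5 kb. Density was not taken out of these values, and stronger peaks were denser in the left end (21.6 against 18.3 per Mb in the middle stretch). They are therefore not separate from the crowding described above. Strength itself was hardly shared between neighbours: Spearman's correlation over neighbouring pairs, which overlap in their peaks, was 0.130 over 267 pairs in the left end and -0.0771 over 327 pairs in the middle stretch.

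Runs of peaks, with each midpoint within 5 kb of the next, were longer in the left end. Runs of 3 or more took in 99 of its peaks (36.9%) and 56 of those of the middle stretch (17.1%). Runs of 5 or more numbered 8 in the left end and 2 in the middle stretch. The longest had 7 peaks, and 3 runs of the left end reached that length, at 1054754 to 1070815, 2664470 to 2677957 and 4019905 to 4036919. The run at 2307299 to 2317213 had 6 peaks in 9.91 kb, 4 of them with q under 1e-10 and the strongest at 66.3. At 4171748 to 4185171, 4 of 5 peaks passed q of 1e-10, with a highest strength of 37.0. By contrast, none of the 5 peaks at 3515606 to 3524958 exceeded 7.77. In the middle stretch the runs of 5 lay at 8066557 to 8074169 and 10499820 to 10513000, with 2 peaks past q of 1e-10 in each.

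The longest empty stretches were of like size in both. In the left end no region was listed from 3875562 to 4019904 (144 kb), just before the run of 7 at 4.0 Mb. In the middle stretch the longest, 10524807 to 10697082 (172 kb), came just after the run of 5 at 10.5 Mb. The cluster near 2.6 Mb also began at the end of an empty stretch, 2495492 to 2599652 (104 kb). A stretch without a listed region may still be bound below the authors' threshold.

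At the list's median, width was not found to differ between the left end and the middle stretch. Narrow regions took a larger share of the left end. Median width was 351 bp (order-statistic interval 322 to 365) in the left end and 358 bp (349 to 371) in the middle stretch. Regions wider than the list's median of 367 bp made up 112 of 268 left-end peaks (41.8%) and 150 of 328 in the middle stretch (45.7%), beside 49.8% of the whole list, and this was not called (-3.94 points, -11.8 to 4.06; Fisher's exact test, adjusted p = 0.871). With the line drawn at 300 bp it was called: 164 of 268 left-end peaks (61.2%) and 240 of 328 in the middle stretch (73.2%) were wider, beside 73.8% of the whole list (-12.0 points, -19.4 to -4.41; Fisher's exact test, adjusted p = 0.00615). Drawn at 200 bp, a line added after the widths had been seen, it was called as well (-12.1 points, -17.6 to -6.97, Fisher's exact test, adjusted p = 2.12e-05). The 200 bp line was tested on the same widths that led to it, so that call is not separate evidence. The width tests, here and below, treat peaks as independent, which close neighbours may not be.

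Regions of up to 200 bp made up 48 of the 268 left-end peaks (17.9%, exact interval 13.51% to 23.04%), against 19 of 328 (5.79%, 3.52% to 8.90%) in the middle stretch and 6.86% of the whole list. The right end had 0 of 11, a count that allows up to 28.5%. All of these narrow regions were weak, with strengths of 2.02 to 4.22 both in the left end and in the middle stretch. They were not a matter of the clusters alone: outside the 500 kb windows 2.5 to 3.0 Mb and 4.0 to 4.5 Mb the left end still had 30 of 184 (16.3%, 11.3% to 22.5%). In the first 4.5 Mb of the other 5 chromosomes they made up 51 of 797 (6.40%, 4.80% to 8.33%), from 3.20% on X to 9.38% on III.

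The weakest peaks of the left end were narrower than those of the middle stretch, while the median widths of strong peaks had overlapping intervals. Among peaks that missed q of 0.001, 41 of 59 in the left end spanned up to 200 bp (69.5%, exact interval 56.1% to 80.8%), against 16 of 68 (23.5%, 14.1% to 35.4%) in the middle stretch. Their median width was 193 bp (118 to 200) in the left end and 250 bp (230 to 280) in the middle stretch. With q under 1e-10 the medians were 444 bp (411 to 494) in the left end and 434 bp (415 to 450) in the middle stretch, and no region of up to 200 bp occurred in either. Along the left end the narrow share of the weakest peaks was 50% to 88.9% in 8 of the 9 windows of 500 kb, on 5 to 10 peaks each; the window from 0.5 to 1.0 Mb had no such peak. Because each window held few of these peaks, its interval is wide, as 11.8% to 88.2% from 3.5 to 4.0 Mb. The piRNA domains stood between the left end and the middle stretch, with 6 of 19 (31.6%) in the one and 11 of 33 (33.3%) in the other. Over the peaks of the list outside the left end, the middle stretch and the right end it was 184 of 779 (23.6%, 20.7% to 26.8%). In the first 4.5 Mb of the other chromosomes it ran from 7.89% on X to 35.4% on III. These shares by strength were examined after the widths had been seen and carry no test.

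**Figure D4:**
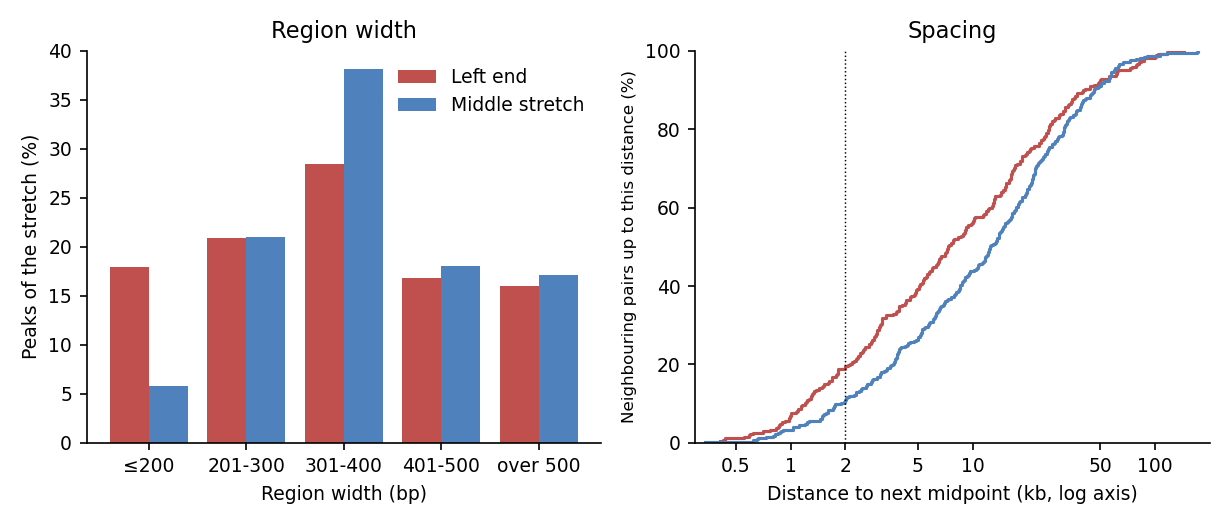
Left panel: share of peaks (vertical axis, percent) by region width in bp (horizontal axis) in the left end (red, 268 peaks) and the middle stretch (blue, 328 peaks); regions of up to 200 bp make up 17.9% of the left end and 5.79% of the middle stretch. Right panel: cumulative share of neighbouring pairs (vertical axis, percent) by distance between midpoints in kb (horizontal log axis), with a dotted line at 2 kb, up to which lie 19.5% of pairs in the left end and 11.0% in the middle stretch.

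Narrow regions often had company. In the left end 20 of the 48 (41.7%) had another peak within 2 kb, as did 68 of 220 wider ones (30.9%), and in the middle stretch 7 of 19 (36.8%) did, as did 60 of 309 wider ones (19.4%). With regions within 1 kb of each other merged into 1, the density of the left end stood at 1.08 times that of the middle stretch (exact conditional interval 0.909 to 1.29).

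As a whole the 607 peaks were narrower than the rest of the list. Regions over 367 bp made up 267 of 607 (44.0%) outside the piRNA domains of chromosome IV and 1795 of 3534 (50.8%) elsewhere (-6.81 points, -11.0 to -2.50; Fisher's exact test, adjusted p = 0.0125). By the same exact test the call was lost at 450 bp (adjusted p = 0.455) and with close regions merged (adjusted p = 0.255). Against the piRNA domains, where 103 of 222 (46.4%) were over 367 bp, there was no call (-2.41 points, -10.0 to 5.16; Fisher's exact test, adjusted p = 0.871). Width and strength, which come from the same peak call, had a Spearman correlation of 0.813 over the left-end peaks, 0.685 over those of the middle stretch and 0.674 over the rest of the list.

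Regions over 1000 bp took a share near that of the whole list in either stretch. There were 4 in the left end (1.49%) and 5 in the middle stretch (1.52%), beside 1.40% of the whole list. All of those in the 2 stretches had q under 1e-10. The widest of the left end, 2313046 to 2314494, spanned 1449 bp with a strength of 29.1 and belonged to the run of 6 peaks named above. The widest of the middle stretch, 10935239 to 10937228, spanned 1990 bp with 35.1, and that of the right end was the 644 bp region already given. At the other extreme 8 left-end regions and 5 in the middle stretch spanned under 50 bp.

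The peaks on either side of each boundary were as follows. The last member below 4.5 Mb had a strength of 2.54, and the first peak beyond it, 4513473 to 4513872, one of 24.8. The first member from 7.0 Mb, 7012754 to 7013010, had 3.82, and the last peak before it, 6958744 to 6959112, had 4.28. Around 13500000 the last member, 13453509 to 13453870, had 13 and the next peak, 13502915 to 13503570, had 9.62. From 17200000 the first member was the peak of strength 116, and the last before it, 17126011 to 17126210, had 2.65.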

How the data were processed

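The 4 libraries were 2 ChIP and 2 input, numbered as replicates 1 and 2. Per the labels' protocols, worms were fixed in formaldehyde (2%), Tris (100 mM) was added to stop fixation, and chromatin was sonicated; the protocol speaks of embryos at lysis, while the labels give L3. Regions were called with PeakSeq on WS180 and the authors deposited a q-value for each, per the file headers and line fields. For the aligner, the caller's settings and how the replicates were joined: not given in the sources used here. First and last bases are other deposited values, used as the authors gave them.

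Strength is -log10 of the deposited q-value; q depends on reads as well as enrichment. Python 3.11.15 with numpy 2.4.6, scipy 1.17.1, pandas 2.3.3 and matplotlib 3.10.9 was used. No peak was left out. Shares were compared by Fisher's exact test, two-sided, with Benjamini-Hochberg adjustment over 6 tests at a threshold of 0.05. Intervals are 95%: Clopper-Pearson, exact Poisson, order-statistic for medians, Newcombe for differences. The tests and intervals were tried on simulated lists of independent peaks. Peaks of the left end are crowded, so that trial cannot show how the tests behave on them. Named regions were the 10 strongest of each long stretch, all right-end and cluster peaks, the widest regions, runs, gaps and boundary neighbours. The runs, the other named widths and the width line at 200 bp were added after values were seen. The width lines at 300 bp and 450 bp were planned as alternatives to the list's median. Members and lists were chosen with earlier results of these data known. The gene table is of another build, so no coordinates, genes or sequences were taken from it.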

Additional observations from a re-analysis of the deposited data

How the results depend on the processing

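No paired analysis was possible because the replicates have no values of their own, which also kept either from being left out. Of 43 alternatives, 32 were labelled the same as the main result. For densities, which carry no test, the label means that the ratio lay within the main interval. For the 30 alternatives on shares it means an unchanged call and no reversed sign. It includes a difference of 0 for the left end minus the middle stretch by the product of q and rank. The density ratio of the left end to the middle stretch (1.18) ran from 1.04, without the 500 kb windows 2.5 to 3.0 Mb and 4.0 to 4.5 Mb, to 1.19, and was 1.10 without the 2 fullest windows of either stretch, which was chosen after seeing the data; its lower bound fell under 1.00 in most of them. The ratio outside to inside the piRNA domains (1.51) ran from 1.41, for the middle stretch alone, to 1.62 under alternatives chosen after seeing the data. Differences in the share of strong peaks were called in none of their alternatives, and some changed sign. For the left end minus the middle stretch the difference was 3.19 points with q under 1e-50, 0.466 without regions under 50 bp and 2.38 with regions within 1 kb merged. For the 607 peaks it was -2.79 points against the piRNA domains and -0.912 against the rest of the list with q under 1e-50, and -0.0824 against the rest by the product of q and rank. The share of wide regions was called for the left end at 300 bp (-12.0 points) and 200 bp (-12.1 points, chosen after seeing the data). Against the rest it was not called at 450 bp (-3.39 points) or after merging (-4.74 points), and against the piRNA domains it turned to 0.0215 points at 300 bp. Merging joins narrow regions to neighbours and only changes how regions are counted. The cause of the differences in width and density was not tested. Unknown depth limits any statement on empty stretches.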
